A study of Homo sapiens with 9 samples.

Results

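The serpins are a family of protease inhibitors and their relatives, named SERPIN with a letter for the clade, which is the branch of the family tree. They were followed here in HepG2, a human hepatoma cell line that still secretes many plasma proteins of the liver. The cells were kept in medium with serum depleted of thyroid hormone and given vehicle, 10 nM triiodothyronine (T3), the active thyroid hormone, or 10 nM of the synthetic ligand GC-1, and RNA was taken at 24 h. The compound, known as sobetirome, binds the beta form of the thyroid hormone receptor in preference to the alpha form. Each group held 3 Affymetrix arrays, 9 in all, and no other treatment, allele or transgene distinguished the groups. Members were all probe sets whose annotation gave exactly 1 gene symbol that starts with SERPIN. This rule found 36 probe sets for 26 genes, of 19064 such probe sets for 11963 genes in all. They covered 8 genes of clade A, 9 of clade B, 2 each of clades F and I, and 1 each of clades C, D, E, G and H.

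An inhibitory serpin presents an exposed reactive loop as bait to a serine or cysteine protease. When the protease cuts the loop, the serpin springs into a new fold and carries the trapped enzyme with it, so that each molecule works once. Some members have lost inhibition and carry hormones or act as chaperones. The liver secretes most plasma serpins, among them the main brakes on thrombin, plasmin and the complement protease C1, and the plasma carriers of cortisol and thyroxine. Clade B members lack a classical signal peptide and act mainly inside cells.

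With T3, 6 of the 26 genes rose (23.1%, against 4.51% of all genes). They were the plasma inhibitors SERPIND1, SERPINC1, SERPINF2 and SERPING1, and the intracellular inhibitors SERPINB1 and SERPINB9. SERPINE2, an inhibitor of thrombin and plasminogen activators at cell surfaces, fell with both ligands. The other calls were falls of 2 genes of low signal, SERPINB13 with T3 and SERPINA2 with GC-1. So 2 of the 26 (7.69%) fell with each ligand, against 1.71% of all genes with T3 and 1.16% with GC-1. SERPIND1, SERPINC1, SERPINB1 and SERPINB9 also rose with GC-1 (15.4% of the 26, against 2.10% of all genes). No plasma serpin of clade A passed the test with either ligand. With 7 such genes, a count of 0 is near the shares of all genes that rose or fell. The changes were modest, the largest being 1.57-fold, in SERPIND1 with T3. Not all calls were steady under alternative fits of the data. The SERPINB9 call was lost in 6 of 18 with T3 and in 4 of 18 with GC-1, and the SERPINE2 call with GC-1 in 6 of 18.

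Promoter sequence is shown for 4 of the 5 genes that changed with both ligands, because these members moved with either agent. No promoter window was given for the other, SERPINC1. The sequences are from RefSeq (GRCh38.p14), and each line gives the 250 bases before an annotated transcription start, 5' to 3' on the strand of the gene. Capitals mark the hexamer AGGTCA, in either orientation (TGACCT on the strand shown), which is the core element bound by thyroid hormone receptors and by many other nuclear receptors. The SERPIND1 window lies at chr22:20773863-20774112 (plus strand), the SERPINB1 window at chr6:2841864-2842113 (minus strand) and the SERPINB9 window at chr6:2903310-2903559 (minus strand). SERPINE2 has 2 annotated starts, and the window shown, at chr2:224031479-224031728 (minus strand), is the one that holds the hexamer. The window of the other start, which lies upstream at chr2:224038641-224038890 and is not shown, does not hold it.
SERPIND1: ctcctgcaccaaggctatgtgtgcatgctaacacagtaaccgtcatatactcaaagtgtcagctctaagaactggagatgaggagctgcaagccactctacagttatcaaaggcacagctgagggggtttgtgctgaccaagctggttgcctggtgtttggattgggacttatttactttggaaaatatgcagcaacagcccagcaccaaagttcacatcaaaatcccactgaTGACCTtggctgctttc
SERPINB1: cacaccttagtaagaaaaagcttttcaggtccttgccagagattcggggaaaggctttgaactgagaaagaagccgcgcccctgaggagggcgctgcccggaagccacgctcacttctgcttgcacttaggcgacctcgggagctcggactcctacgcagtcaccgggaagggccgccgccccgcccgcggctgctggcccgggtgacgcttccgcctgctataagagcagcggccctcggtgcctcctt
SERPINB9: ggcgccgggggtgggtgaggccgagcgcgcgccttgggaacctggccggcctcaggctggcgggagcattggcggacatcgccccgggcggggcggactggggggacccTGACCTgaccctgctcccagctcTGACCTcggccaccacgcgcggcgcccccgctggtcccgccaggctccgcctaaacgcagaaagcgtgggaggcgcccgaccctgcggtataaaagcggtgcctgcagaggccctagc
SERPINE2: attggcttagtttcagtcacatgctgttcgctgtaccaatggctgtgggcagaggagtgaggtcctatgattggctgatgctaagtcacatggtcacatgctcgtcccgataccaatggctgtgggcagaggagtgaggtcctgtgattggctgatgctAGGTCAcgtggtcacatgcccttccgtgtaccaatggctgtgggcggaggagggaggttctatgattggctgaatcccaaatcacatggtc
The hexamer begins 17 bases before the start of SERPIND1 and 91 bases before that of SERPINE2. SERPINB9 holds it at 141 and 118 bases before its start, and the letters are not in the SERPINB1 window. Promoter windows were given for 20 member genes, 27 windows in all. The hexamer is in 5 of the 27 windows, which belong to 5 genes. Besides SERPIND1, SERPINB9 and SERPINE2 these are SERPINA1 and SERPINA3, neither of which passed the test. Over all 35116 promoter windows, 12.1% hold it, and the difference between these shares of windows was not tested. The direct repeat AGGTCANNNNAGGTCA, in either orientation, is in 0 of the 27 windows and in 0.0142% of all windows. A match describes the letters and is not a binding site.

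Values are log2 signals, so a difference of 1 is a doubling. The 9 arrays were fitted together in limma, with a mean for each group, and the Benjamini-Hochberg adjustment of p-values covered the 22215 probe sets left after removal of array controls. A gene rose or fell where the adjusted p was under 0.05, and a gene with several probe sets is given by its brightest. SE marks the standard error of a difference from this model and SD the spread of 3 arrays. Nothing in the labels shows the replicates to be separate cultures, and the p-values therefore reflect a spread between samples that may be technical. In bulk RNA, fewer cells that make a transcript and less of it per cell cannot be told apart.

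The arrays had medians of 7.02 to 7.06, and the middle 50% of probe sets spanned 2.97 and 2.99 on T3 replicates 2 and 1 and 2.83 to 2.88 on the others. Principal components are the axes along which the arrays differ most. On the second, T3 replicate 3 (6.59) lay among the GC-1 arrays (3.15 to 8.3), apart from T3 replicates 1 and 2 (-14.61 and -11.79). On the first, T3 replicate 3 was the highest array, at 14.11. Hepatocyte markers were bright, with ALB between 14.37 and 14.54, TF between 14.03 and 14.21 and AFP between 14.30 and 14.39 on all arrays. The 8 measured hepatocyte markers held 2 that rose with T3, APOB and FGB (25.0%, against 4.51% of all genes), and 1 with GC-1, FGB (12.5%, against 2.10%). Of 13 measured markers of leukocytes, endothelium, fibroblasts and platelets, none passed with either ligand in limma, and 3 with T3 and 1 with GC-1 had an unadjusted p under 0.05, against 22.4% and 17.0% of all genes. PTPRC lay between 4.86 and 5.09. Mean signals of the 13 ran from 4.77 in PPBP to 9.15 in COL1A1, so these markers were not all faint. Markers of squamous epithelium, a tissue known for several clade B serpins, held 1 of 4 that fell with both ligands, SFN (25.0%, against 1.71% of all genes with T3 and 1.16% with GC-1).

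Of the 26 genes, 6 rose with T3 (23.1%), against 4.51% of all genes, and 2 fell (7.69%), against 1.71%. With GC-1, 4 rose (15.4%), against 2.10% of all genes, and 2 fell (7.69%), against 1.16%. The median difference of the members was 0.05 with each ligand, against -0.02 with T3 and 0.00 with GC-1 over all genes. The shares rest on few genes, and the median member lay near 0. The 3 T3 arrays lay wholly apart from the vehicle arrays, in either direction, in 11 of 26 genes, against 26.9% of all genes. The GC-1 arrays did so in 11, against 29.3%. Counted by probe sets, 7 of 36 rose and 2 fell with T3, against 4.00% and 1.50% of all probe sets, and 5 rose and 2 fell with GC-1, against 1.81% and 0.986%. The T3 and GC-1 comparisons share the 3 vehicle arrays, so the results of one are not independent of the other.

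**Figure D1:**
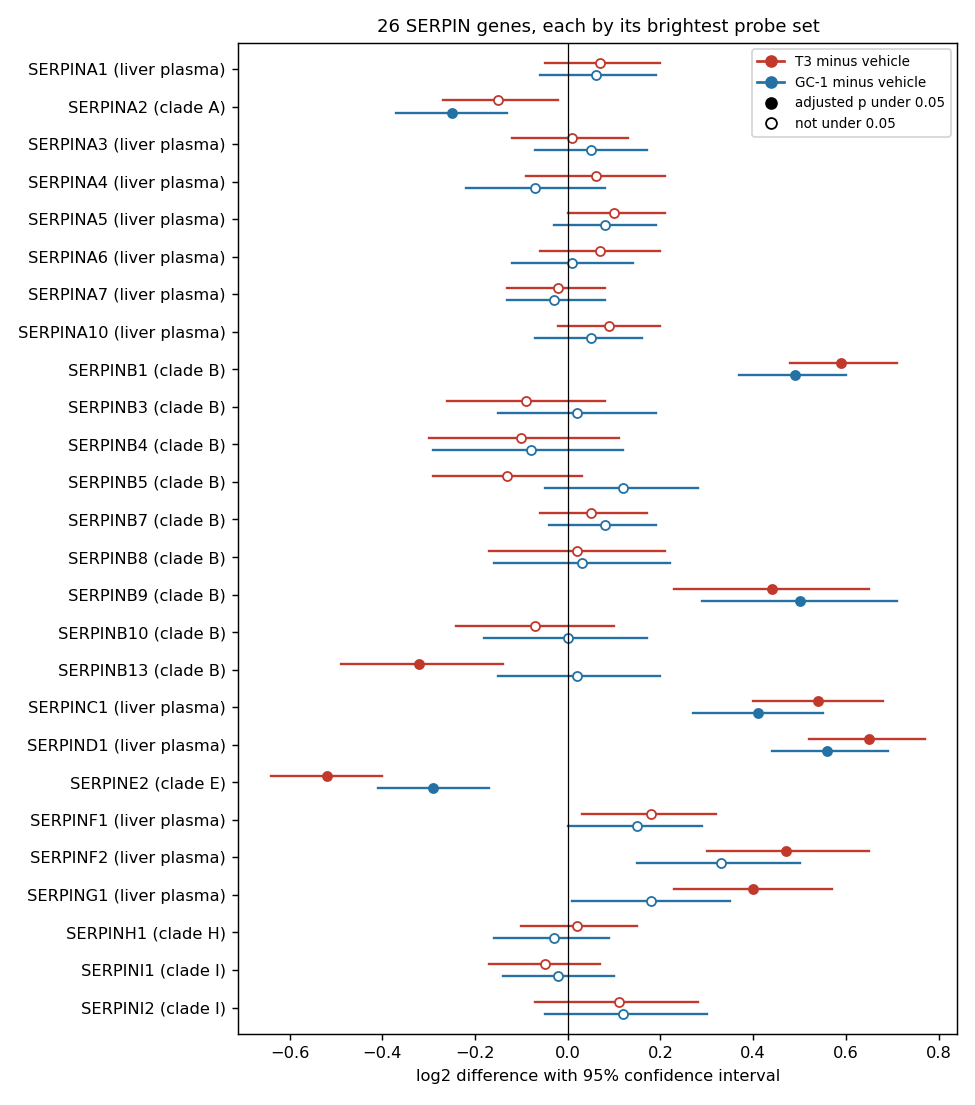
Log2 difference from vehicle with its 95% confidence interval for each of the 26 SERPIN genes, with T3 in red and GC-1 in blue (3 arrays a group), filled where the adjusted p was under 0.05. SERPINB1, SERPINB9, SERPINC1 and SERPIND1 lie to the right and SERPINE2 to the left with both ligands, while the clade A plasma serpins lie around 0.

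Among inhibitors of coagulation, SERPIND1 had the largest increase of the family. It encodes heparin cofactor II, which inhibits thrombin when bound to glycosaminoglycans. Its signal was 11.35, 11.41 and 11.36 in vehicle, 12, 11.95 and 12.12 with T3, and 11.99, 11.93 and 11.89 with GC-1. Every ligand array lay above every vehicle array, and T3 replicate 3 was the highest. The increase was 0.65 ± 0.06 (SE, n = 3 per group), or 1.57-fold, with T3 (adjusted p = 5.20e-05, limma) and 0.56 ± 0.06, or 1.48-fold, with GC-1 (adjusted p = 0.000234).

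SERPINC1 encodes antithrombin, the main plasma inhibitor of thrombin and factor Xa. It stood at 9.77, 9.68 and 9.60 in vehicle, 10.21, 10.15 and 10.31 with T3, and 10.11, 10.03 and 10.13 with GC-1. The ligand arrays did not overlap the vehicle arrays, and all 3 T3 arrays lay above all 3 GC-1 arrays. SERPINC1 rose 1.46-fold with T3 (0.54 ± 0.06, adjusted p = 0.000489, limma) and 1.33-fold with GC-1 (0.41 ± 0.06, adjusted p = 0.00550). Some other plasma inhibitors of clotting proteases belong to clade A. SERPINA5, the protein C inhibitor, had vehicle values of 11.18, 11.25 and 11.24, T3 values of 11.33, 11.32 and 11.33 and GC-1 values of 11.35, 11.30 and 11.25. Its T3 arrays lay above the vehicle arrays, but the difference of 0.10 did not pass (adjusted p = 0.249, limma). SERPINA10, which inhibits factor Xa together with protein Z, differed by 0.09 with T3 (adjusted p = 0.340, limma) and 0.05 with GC-1 (adjusted p = 0.739).

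SERPINF2 encodes alpha-2-antiplasmin, the main inhibitor of plasmin, the enzyme that dissolves fibrin. Its values were 9.45, 9.51 and 9.31 in vehicle, 9.82, 9.84 and 10.03 with T3, and 9.88, 9.69 and 9.67 with GC-1. All 6 ligand arrays lay above the vehicle arrays. SERPINF2 rose 1.39-fold with T3 (0.47 ± 0.08, adjusted p = 0.00550, limma). With GC-1 the difference was 0.33 ± 0.08 and the adjusted p 0.0601, just above the threshold. It passed in 8 of 18 alternatives, for example at an adjusted p of 0.0291 without T3 replicate 3, and the adjusted p ranged from 0.00522 to 0.215.

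SERPINF1 neighbours SERPINF2 with no other protein-coding gene between them in RefSeq (GRCh38.p14) and encodes pigment epithelium-derived factor, a secreted serpin without protease inhibition. Its vehicle values were 12.60, 12.62 and 12.55, T3 values 12.74, 12.65 and 12.91, and GC-1 values 12.79, 12.73 and 12.70. The ligand arrays lay above the vehicle arrays. The differences of 0.18 with T3 (adjusted p = 0.152, limma) and 0.15 with GC-1 (adjusted p = 0.306) did not pass.

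SERPING1 encodes the C1 inhibitor, which restrains the complement proteases C1r and C1s and the contact system proteases kallikrein and factor XIIa. Vehicle arrays gave 7.28, 7.25 and 7.02, T3 arrays 7.49, 7.55 and 7.71, and GC-1 arrays 7.38, 7.40 and 7.31. The 3 groups did not overlap, with GC-1 between vehicle and T3. The gene rose 1.32-fold with T3 (0.40 ± 0.08, adjusted p = 0.0130, limma). The GC-1 difference of 0.18 ± 0.08 did not pass (adjusted p = 0.296).

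**Figure D2:**
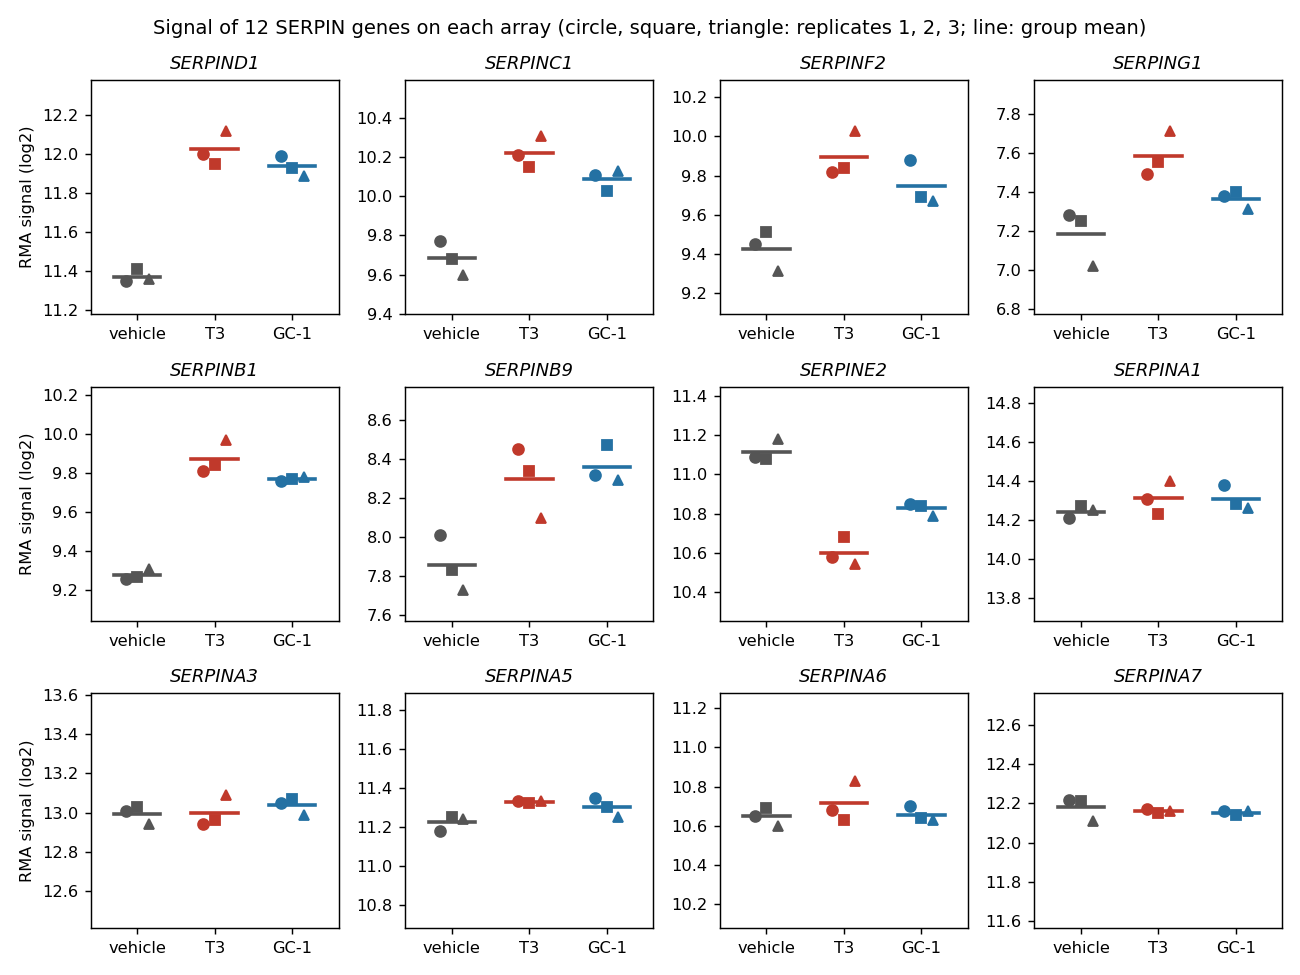
Log2 signal of 12 SERPIN genes on each of the 9 arrays, by group, with the group mean as a line. All panels span the same range of 1.2 log2 units, and axes do not start at 0. The 7 genes from SERPIND1 to SERPINE2 separate ligand from vehicle arrays, and the 5 clade A genes, SERPINA1 to SERPINA7, show little or no separation.

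The 12 liver plasma serpins measured held 4 that rose with T3 (33.3%) and 2 that rose with GC-1 (16.7%), against 4.51% and 2.10% of all genes, and none fell. Their median difference was 0.10 with T3 and 0.07 with GC-1. The genes that rose were not spread over the list. Outside clade A, 4 of 5 rose with T3 and 2 of 5 with GC-1, with medians of 0.47 and 0.33. Within clade A, 0 of 7 rose or fell with either ligand in limma, and 0 of 7 had an unadjusted p under 0.05, against 22.4% (T3) and 17.0% (GC-1) of all genes. With 7 genes, a count of 0 called is near the shares of all genes that rose or fell. Their differences lay between -0.02 and 0.10 with T3 and between -0.07 and 0.08 with GC-1. This split by clade within the list was made after the values were seen.

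SERPINA1 encodes alpha-1-antitrypsin, the main plasma inhibitor of neutrophil elastase. Its brightest probe set gave 14.21, 14.27 and 14.25 in vehicle, 14.31, 14.23 and 14.40 with T3, and 14.38, 14.28 and 14.26 with GC-1. The groups overlapped, and the differences were 0.07 with T3 (adjusted p = 0.522, limma) and 0.06 with GC-1 (adjusted p = 0.667). A second bright probe set differed by 0.03 with T3 and 0.06 with GC-1. The third, faint at a mean of 4.98, lay below vehicle on all 3 T3 arrays, with a difference of -0.21 (95% interval -0.37 to -0.05, adjusted p = 0.127, limma), and differed by -0.03 with GC-1. The bright signals lie near 14.54, the highest value of any probe set on any array. Whether the probes were saturated was not tested.

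SERPINA3 encodes alpha-1-antichymotrypsin, an acute phase protein that inhibits cathepsin G. Its values were 13.01, 13.03 and 12.94 in vehicle, 12.94, 12.96 and 13.09 with T3, and 13.05, 13.07 and 12.99 with GC-1, with all groups overlapping. The differences were 0.01 with T3 (adjusted p = 0.953, limma) and 0.05 with GC-1 (adjusted p = 0.749). SERPINA4, the tissue kallikrein inhibitor kallistatin, differed by 0.06 and -0.07 (adjusted p = 0.697 and 0.665).

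The hormone carriers of the family also lay flat. SERPINA7 encodes thyroxine-binding globulin, the main plasma carrier of thyroid hormone. It gave 12.22, 12.21 and 12.11 in vehicle, 12.17, 12.15 and 12.16 with T3, and 12.16, 12.14 and 12.16 with GC-1. The differences were -0.02 with T3 (95% interval -0.13 to 0.08, adjusted p = 0.836, limma) and -0.03 with GC-1 (interval -0.13 to 0.08, adjusted p = 0.846). SERPINA6, the cortisol carrier, gave 10.65, 10.69 and 10.60 in vehicle, 10.68, 10.63 and 10.83 with T3, and 10.70, 10.64 and 10.63 with GC-1. Its differences were 0.07 (interval -0.06 to 0.20, adjusted p = 0.559, limma) and 0.01 (interval -0.12 to 0.14, adjusted p = 0.968). AGT, angiotensinogen, is a clade A relative without a SERPIN symbol, and its differences were 0.13 and 0.09 (adjusted p = 0.191 and 0.433).

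SERPINA2 is a relative of SERPINA1 that RefSeq lists as a transcribed pseudogene. It was faint, with 5.83, 5.83 and 5.70 in vehicle, 5.64 on each of the 3 T3 arrays, and 5.61, 5.53 and 5.47 with GC-1. The groups did not overlap, and it fell 1.19-fold with GC-1 (-0.25 ± 0.06, adjusted p = 0.0380, limma), while the T3 difference was -0.15 (adjusted p = 0.162). The GC-1 call was lost without any 1 array other than vehicle replicate 3 or T3 replicate 3, with an adjusted p of 0.152 without vehicle replicate 1, 0.153 without vehicle replicate 2, 0.0536 without T3 replicate 1 or 2, and 0.0555, 0.144 and 0.148 without GC-1 replicate 1, 2 and 3. It was also lost with the trend and robust options of eBayes (adjusted p = 0.0625), which fit the spread against the signal, and the adjusted p ranged from 0.0117 to 0.153 over all alternatives.

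Inside cells, SERPINB1 protects against neutrophil serine proteases such as elastase and cathepsin G. Its brighter probe set read 9.26, 9.27 and 9.31 in vehicle, 9.81, 9.84 and 9.97 with T3, and 9.76, 9.77 and 9.78 with GC-1. No array of either ligand came near the vehicle arrays. SERPINB1 rose 1.51-fold with T3 (0.59 ± 0.05, adjusted p = 5.41e-05, limma) and 1.40-fold with GC-1 (0.49 ± 0.05, adjusted p = 0.000406). Its other probe set gave 1.39-fold with T3 (adjusted p = 0.000340) and 1.41-fold with GC-1 (adjusted p = 0.000401).

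SERPINB9 inhibits granzyme B, the death protease of cytotoxic lymphocytes. It gave 8.01, 7.83 and 7.73 in vehicle, 8.45, 8.34 and 8.10 with T3, and 8.32, 8.47 and 8.29 with GC-1. The ligand arrays lay above the vehicle arrays, but T3 replicate 3 exceeded vehicle replicate 1 only narrowly. SERPINB9 rose 1.35-fold with T3 (0.44 ± 0.10, adjusted p = 0.0233, limma) and 1.41-fold with GC-1 (0.50 ± 0.10, adjusted p = 0.0192). A fainter probe set of the same gene, with a mean of 5.60, differed by 0.32 and 0.30 and did not pass (adjusted p = 0.261 and 0.367).
The T3 call of SERPINB9 depended on single arrays. It was lost without vehicle replicate 2 or 3 (adjusted p = 0.0781 and 0.102) and without T3 replicate 1 or 2 (0.0830 and 0.0595). With the interquartile range of the array as a covariate the difference was 0.22 (adjusted p = 0.232), and without T3 replicates 1 and 2 it was 0.24 (adjusted p = 0.211). The adjusted p ranged from 0.00215 to 0.232 over the alternatives. The GC-1 call was lost without vehicle replicate 2 or 3 (0.0810 and 0.0911) or GC-1 replicate 1 or 2 (0.0622 and 0.0947), within a range of 0.00102 to 0.0947.

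SERPINB1 and SERPINB9 are neighbours among protein-coding genes in RefSeq (GRCh38.p14), in a run of 3 clade B genes, and both measured members of this run rose with both ligands. A separate run of 9 clade B genes had 6 measured members, SERPINB3, SERPINB4, SERPINB5, SERPINB7, SERPINB10 and SERPINB13, of which none rose, with differences between -0.32 and 0.05 with T3 and between -0.08 and 0.12 with GC-1. The run of 9 protein-coding clade A genes that holds SERPINA1, SERPINA3, SERPINA4, SERPINA5, SERPINA6 and SERPINA10 had 0 of these 6 past the threshold. Over all genes, 4.51% rose and 1.71% fell with T3, and 2.10% rose and 1.16% fell with GC-1. A count of 0 among 6 is near these shares, and the runs were not tested against each other. SERPINB8, a further clade B gene, differed by 0.02 and 0.03 (adjusted p = 0.928 and 0.916).

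The other 7 clade B genes were faint, with mean signals of at most 6.34, and SERPINB4, SERPINB5, SERPINB10 and SERPINB13 were below the 30th percentile of all probe sets (6.05), here called dim. SERPINB13, an inhibitor of cathepsins known from squamous epithelium, had 6 probe sets with means of 3.98 to 5.68 over the 9 arrays. The brightest gave 5.83, 5.86 and 5.65 in vehicle, 5.31, 5.57 and 5.52 with T3, and 5.78, 5.89 and 5.75 with GC-1. The T3 arrays lay below both other groups, and the probe set fell 1.25-fold with T3 (-0.32 ± 0.08, adjusted p = 0.0434, limma), while GC-1 differed by 0.02 (adjusted p = 0.927). The other 5 probe sets ranged from -0.11 to 0.19 with T3, none passed, and the mean over all 6 differed by -0.07 (adjusted p = 0.440).
The SERPINB13 call was lost without vehicle replicate 1 or 2 (adjusted p = 0.149 and 0.142), T3 replicate 1 or 3 (0.128 and 0.0544), or GC-1 replicate 1, 2 or 3 (0.0611, 0.0585 and 0.0597). It was lost in 13 of 17 alternatives, over which the adjusted p ranged from 0.0299 to 0.440. The call thus rests on 1 of 6 probe sets.

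**Figure D3:**
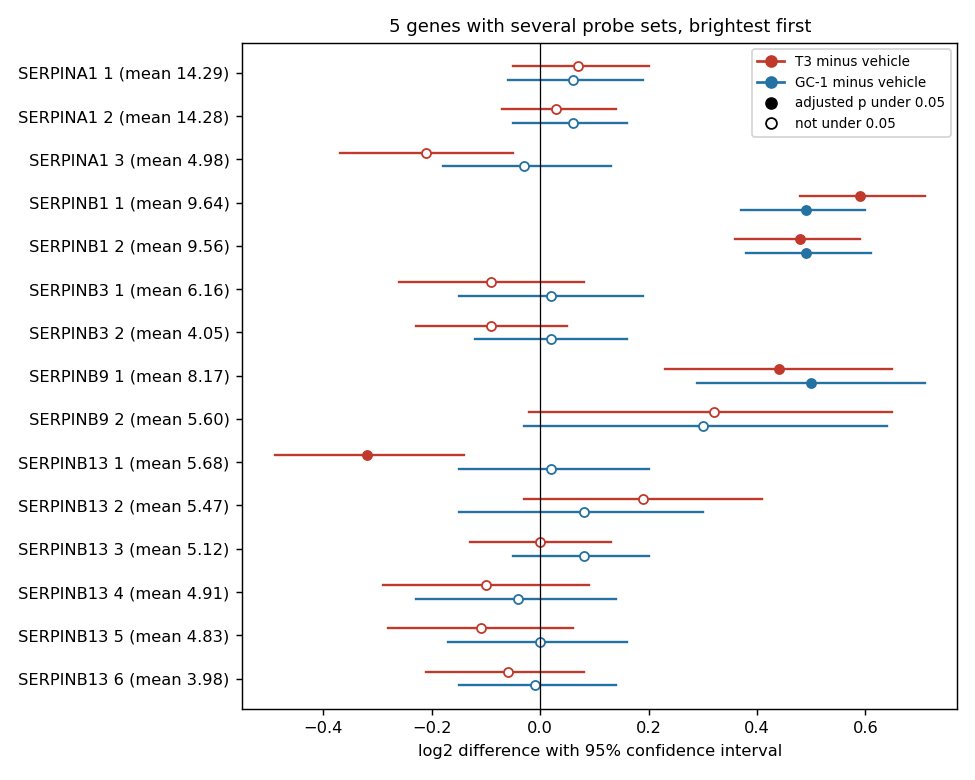
Log2 difference from vehicle with 95% confidence interval for the 15 probe sets of the 5 SERPIN genes with several, numbered from the brightest, with the mean signal over the 9 arrays in the label. Both SERPINB1 probe sets lie to the right with both ligands, whereas 1 of 6 SERPINB13 probe sets departs from 0 with T3.

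SERPINE2, also called protease nexin-1, inhibits thrombin, urokinase and tissue plasminogen activator at the cell surface and matrix. It stood at 11.09, 11.08 and 11.18 in vehicle, 10.58, 10.68 and 10.54 with T3, and 10.85, 10.84 and 10.79 with GC-1. The 3 groups did not overlap, and GC-1 lay between vehicle and T3. It fell 1.43-fold with T3 (-0.52 ± 0.05, adjusted p = 0.000210, limma) and 1.22-fold with GC-1 (-0.29 ± 0.05, adjusted p = 0.0157). The GC-1 call was lost without vehicle replicate 1 or 3 (adjusted p = 0.0557 and 0.0841) or GC-1 replicate 1, 2 or 3 (0.0529, 0.0641 and 0.0761), within a range of 0.000207 to 0.0841. The T3 call held in all 18 alternatives.
The other secreted members differed little. SERPINI1, neuroserpin, which inhibits tissue plasminogen activator, differed by -0.05 and -0.02 (adjusted p = 0.679 and 0.933), and SERPINI2 by 0.11 and 0.12 (adjusted p = 0.485 and 0.503). SERPINH1, the collagen chaperone HSP47 of the endoplasmic reticulum, differed by 0.02 and -0.03 (adjusted p = 0.845 and 0.841).

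GC-1 and T3 were then compared directly, at the same dose and time, to see where the ligands differ in effect on these genes. In limma 0 of 26 genes differed at an adjusted p under 0.05, as did 0% of all genes, and 4 of 26 (15.4%) had an unadjusted p under 0.05, against 14.1% of all genes. The 3 GC-1 arrays lay wholly apart from the 3 T3 arrays in 7 of 26 genes, against 18.9% of all genes. The share at the unadjusted p lies near the background. The absence of calls did not hold in every fit. Without T3 replicate 3, 338 of all probe sets passed between the ligands. With the trend and robust options of eBayes on all 9 arrays, 22 passed. Of the 9 genes called with T3 or GC-1, 7 had the smaller difference with GC-1, the exceptions being SERPINB9 and SERPINA2. Most of the 9 were picked by a T3 call, which in itself favours a larger difference with T3. This count is therefore no measure of the relative strength of the ligands. The T3 and GC-1 differences are also taken from the same vehicle arrays.

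The largest differences between ligands were in SERPINB13, SERPINB5, SERPINE2 and SERPING1, whose intervals left out 0. SERPINE2 was 0.23 higher with GC-1 than with T3 (95% interval 0.11 to 0.35, adjusted p = 0.197, limma), meaning less of a fall. With the trend and robust options of eBayes it passed (adjusted p = 0.0493), over a range of 0.0493 to 0.461. SERPING1 was lower with GC-1 by -0.22 (interval -0.39 to -0.05, adjusted p = 0.269). The 2 dim genes were SERPINB13 (0.34, interval 0.17 to 0.52, adjusted p = 0.190) and SERPINB5, or maspin (0.25, interval 0.08 to 0.41, adjusted p = 0.234).
SERPINB5 rested on 2 arrays. It gave 5.62, 5.51 and 5.48 in vehicle, 5.33, 5.32 and 5.59 with T3, and 5.68, 5.64 and 5.66 with GC-1. T3 replicates 1 and 2, the arrays with the wider spread, were low and T3 replicate 3 was not. Without T3 replicate 3 the ligand difference was 0.34 (adjusted p = 0.0355) and the T3 difference from vehicle -0.22 (adjusted p = 0.0423), against -0.13 (adjusted p = 0.355) with all arrays. With the interquartile range as a covariate the ligand difference was -0.01 (adjusted p = 0.970).

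SERPING1 was the 1 gene among the 6 that rose with T3 whose interval between ligands left out 0. In the other 5, GC-1 minus T3 was -0.08 in SERPIND1 (95% interval -0.21 to 0.04), -0.11 in SERPINB1 (-0.22 to 0.01), -0.13 in SERPINC1 (-0.27 to 0.00), -0.15 in SERPINF2 (-0.32 to 0.03) and 0.06 in SERPINB9 (-0.15 to 0.27). The intervals of all 26 genes fell within 1.5-fold in either direction, as did those of 99.8% of all genes. This margin is wide for these genes. Only SERPIND1 (1.57-fold) and SERPINB1 (1.51-fold), both with T3, differed from vehicle by more than 1.5-fold. Missing the threshold is no evidence of equal action on these genes.

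**Figure D4:**
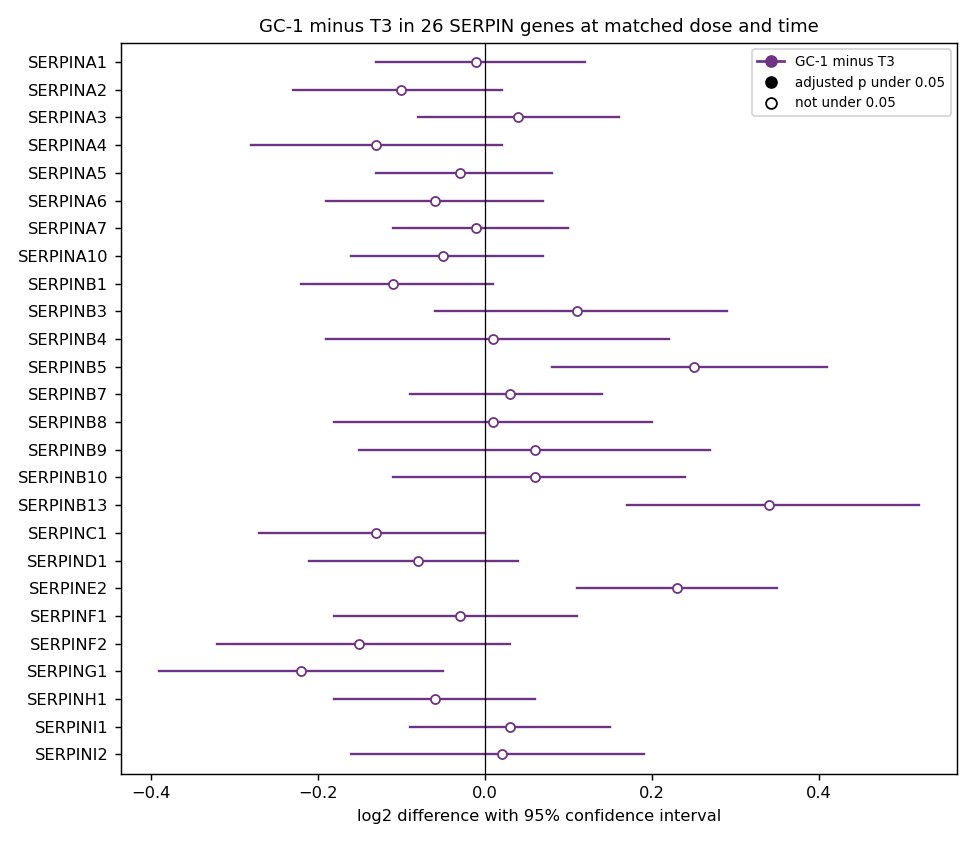
GC-1 minus T3 in log2 units with its 95% confidence interval for the 26 SERPIN genes (3 arrays a group). No gene passed at an adjusted p under 0.05. The intervals of SERPINB5, SERPINB13 and SERPINE2 lie above 0 and that of SERPING1 below it.

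The proteases that serpins inhibit were examined from a list of known targets. Of 34 listed, 33 were measured, and 9 rose with T3 (27.3%, against 4.51% of all genes) and 3 with GC-1 (9.09%, against 2.10%), with none lower. The median of the list was 0.03 with T3 and 0.06 with GC-1, against -0.02 and 0.00 over all genes. The largest increase was in HGFAC, the activator of hepatocyte growth factor, at 0.78 ± 0.06 with T3 (adjusted p = 3.79e-05, limma) and 0.58 ± 0.06 with GC-1 (adjusted p = 0.000494). F7, the clotting factor that starts the tissue factor pathway and is restrained by antithrombin, rose by 0.50 with T3 and 0.28 with GC-1 (adjusted p = 0.000340 and 0.0259). C1S, a complement protease held by the C1 inhibitor, rose by 0.44 and 0.33 (adjusted p = 0.00627 and 0.0438).
HPN, the surface protease hepsin, rose by 0.36 with T3, F10, the zymogen of the antithrombin target factor Xa, by 0.42, and MASP2, a lectin pathway protease, by 0.31. The remaining 3 that rose with T3 lie outside the rule for named genes and are named to complete the count: F11 (0.20), PROC (0.22) and PLG (0.27), the zymogen of plasmin. None of these 6 passed with GC-1. F2, the zymogen of thrombin, differed by 0.22 and 0.16 (adjusted p = 0.0549 and 0.198). ELANE, neutrophil elastase, lay low at 4.85 to 5.25 over all arrays, and GZMB, granzyme B, at 5.62 to 5.80, and neither passed.

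Cofactors and clearance receptors for serpins had 12 of 14 measured. None passed with T3 in limma, although 8 (66.7%) had an unadjusted p under 0.05, against 22.4% of all genes. With GC-1, 1 rose (8.33%, against 2.10% of all genes), the receptor VLDLR (0.29, adjusted p = 0.0284, limma). LRP1, which clears serpin and protease complexes, differed by 0.20 and 0.18 (adjusted p = 0.168 and 0.284). Of 26 protease inhibitors of other families, all measured, 5 rose and 1 fell with T3 (19.2% and 3.85%, against 4.51% and 1.71% of all genes). With GC-1, 3 rose (11.5%, against 2.10%), and the medians were 0.05 and 0.04. CSTB and CST3, inhibitors of cysteine cathepsins, rose by 0.44 and 0.27 with T3 and by 0.27 and 0.22 with GC-1. ITIH1 and ITIH3, heavy chains of inter-alpha-trypsin inhibitor, rose by 0.43 and 0.37 with T3, and ITIH1 by 0.30 with GC-1. KNG1, kininogen, rose by 0.31 with T3, and TFPI2, a Kunitz inhibitor, differed by -0.40 (adjusted p = 0.0383, limma), which is the 1 that fell. Both KNG1 and TFPI2 were dim, with means of 5.95 and 5.46. Genes for the transport and disposal of alpha-1-antitrypsin in the endoplasmic reticulum, 12 of 14 measured, had 0 past the threshold with either ligand in limma. A count of 0 among 12 is near the shares of all genes that rose, 4.51% and 2.10%. None of the 12 had an unadjusted p under 0.05, against 22.4% of all genes with T3 and 17.0% with GC-1. Their differences lay between -0.01 and 0.10 with T3.

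**Figure D5:**
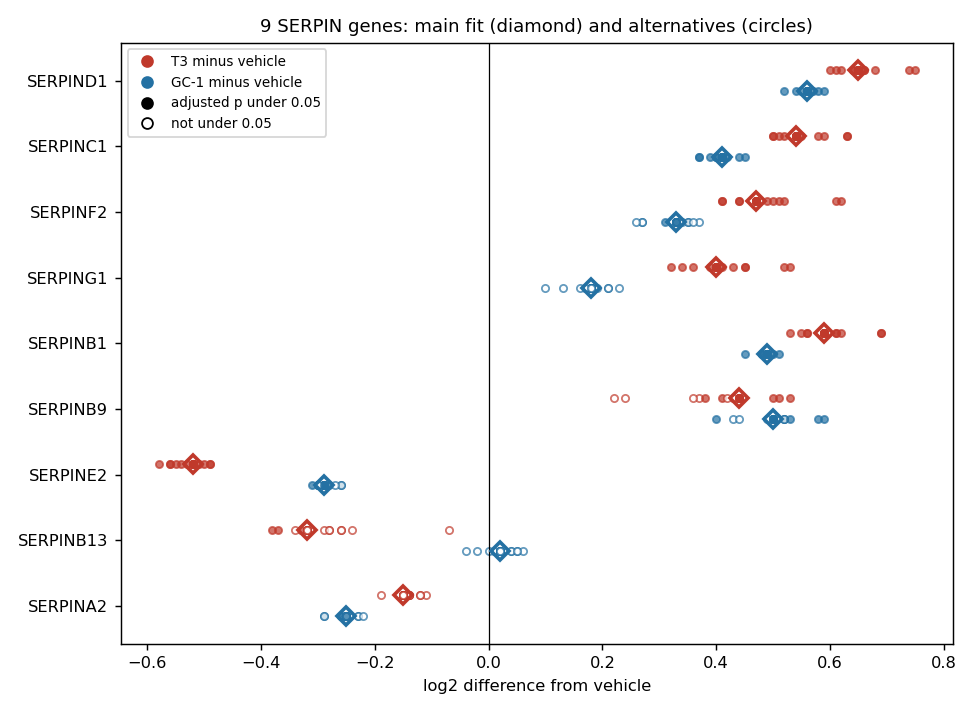
Log2 difference from vehicle of the 9 SERPIN genes called with at least 1 ligand, in the fit as reported (diamonds) and under each alternative (circles, filled where the adjusted p was under 0.05). SERPIND1, SERPINC1 and SERPINB1 are filled throughout with both ligands, whereas SERPINB13 and SERPINA2 are open in most alternatives.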

How the data were processed

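Messenger RNA was measured on 9 arrays, 3 each of vehicle, T3 and GC-1, with groups taken from their titles. The authors deposited log2 signals, and the submitters' processing notes name RMA as the method; its version and the annotation build are not given in the sources used here. The log base was inferred from the range of the values (3.15 to 14.54), and fold changes depend on it. RMA compresses faint signals and can understate their changes. No scanner files were used, so detection and saturation were not examined, and precision is limited by 3 arrays a group.

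Array controls (62) were left out. Symbols came from the platform annotation, and all 36 member probe sets matched the RefSeq symbol by Entrez identifier. Differences were fitted with limma 3.58.1 in R 4.3.3 (lmFit, eBayes, two-sided), after the script was tested on simulated data. Array values were given for members called in any contrast and for several plasma serpins whatever they showed. From the lists of related genes, called members were named, at most 6 a list by the smallest p with T3. Members, lists and alternatives were chosen with earlier results of these data known. Alternatives were quantile normalization, no dim probe sets (mean under 6.054, the 30th percentile), eBayes with trend and robust options, array weights, only the groups compared, a replicate block, the interquartile range as a covariate, probe sets averaged by gene, and arrays left out.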

Additional observations from a re-analysis of the deposited data

How the results depend on the processing

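The counts of SERPIN probe sets that rose held under every alternative within 1.5 times: 7 with T3 (6 to 7 without each replicate in turn, 6 to 8 in all) and 5 with GC-1 (4 to 6). Liver plasma genes that rose numbered 4 with T3 (4 to 5) and 2 with GC-1 (2 to 3). Over all probe sets, 888 rose with T3 and 403 with GC-1, and under the alternatives these counts ranged from 543 to 1287 and from 214 to 706. The family was thus not set against a constant background. The counts of SERPIN probe sets that fell were less steady. With T3 the count of 2 became 1 after quantile normalization, without dim probe sets, with only the groups compared, with the replicate block, with the interquartile range as a covariate and without T3 replicates 1 and 2, and ranged from 1 to 2 without each replicate. With GC-1 the count of 2 became 1 without dim probe sets, with the trend and robust options and with the covariate, 0 with the replicate block, and ranged from 0 to 2 without each replicate. Over all probe sets the counts that fell ranged from 112 to 1152 with T3 and from 54 to 729 with GC-1. Between the ligands the count of 0 became 1 with the trend and robust options and ranged from 0 to 1 without each replicate. Over all probe sets the count between ligands went from 0 to 22 with these options and to 338 without T3 replicate 3. The filter leaves fewer probe sets and the 2-group fit fewer arrays; otherwise the cause was not tested.

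Same-numbered replicates deviated from their group means with correlations of -0.262 to 0.075, so the numbers were not taken as pairs. The replicate block left SERPINE2 with GC-1 at an adjusted p of 0.0534, SERPINA2 with GC-1 at 0.0724 and SERPINB13 with T3 at 0.0511 (limma), and changed no other call among the 14 SERPIN genes examined under it. It was fitted to all probe sets, but its results were not examined for the named genes outside the family.

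Of 747 values of named genes under alternatives, 673 kept direction and side of the threshold, 39 lost the call, 11 gained it and 24 changed sign, none of these with an adjusted p under 0.05. The sign changes were SERPINA1 with T3 (-0.03 with probe sets averaged) and between ligands (0.06 with probe sets averaged, 0.00 with array weights, -0.05 to 0.03 without a replicate), SERPINA3 with T3 (0.00 after quantile normalization, -0.02 with array weights, -0.04 to 0.04 without a replicate) and between ligands (-0.09 with the covariate, -0.05 without T3 replicates 1 and 2), SERPINA6 with GC-1 (-0.04 with the covariate, -0.01 to 0.03 without a replicate), SERPINA7 between ligands (0.02 after quantile normalization, 0.01 with the covariate, -0.01 to 0.00 without a replicate), SERPINB5 with T3 (0.05 with the covariate and without T3 replicates 1 and 2) and between ligands (-0.01 with the covariate), SERPINB9 between ligands (-0.04 to 0.14 without a replicate) and SERPINB13 with GC-1 (-0.04 to 0.06 without a replicate).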

Other observations

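1 further probe set names both SERPINB3 and SERPINB4 and so lay outside the family as counted. It read 6.16 to 6.19 in vehicle, 6.07 to 6.26 with T3 and 6.11 to 6.20 with GC-1, with differences of -0.02 and -0.03 (adjusted p = 0.888 and 0.879, limma).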
